A study of Saccharomyces cerevisiae with 9 samples.

Results

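The 32 genes described here encode the enzymes that make ergosterol, the enzymes that store it as steryl esters and release it again, and the paralogous activators Upc2 and Ecm22. They were taken by gene name from a table of 6215 yeast genes, and all 32 were among the 5886 genes that could be tested. Polyadenylated RNA had been sequenced from haploid MATα Saccharomyces cerevisiae after 24 h of growth at 28 °C in synthetic complete medium, with 3 biological replicates of each of 3 genotypes, to ask how a lack of eisosomes affects the transcriptome. Eisosomes are protein assemblies that shape furrows in the plasma membrane. The triple mutant carried seg1Δ, nce102Δ and pil1Δ with his3Δ1, leu2Δ0 and ura3Δ0, and its genotype lists LYS2 and MET15 as present. The pil1 strain was BY4742 with pil1::kanMX4, and the wild type was BY4742 itself, so both carried his3Δ1, leu2Δ0, lys2Δ0 and ura3Δ0. The leucine, histidine and uracil markers were therefore shared by all 9 libraries, while the LYS2 allele changed together with the triple mutant genotype, and its part in any difference cannot be told apart from that of the deletions.

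Ergosterol is the main sterol of fungal membranes. Acetyl-CoA units are joined into mevalonate and then into farnesyl diphosphate, a pair of which makes squalene, and squalene is oxidised and folded into lanosterol. A series of oxygen-dependent and NADPH-dependent steps then turns lanosterol into ergosterol. Excess sterol is esterified to fatty acids and kept in lipid droplets, and the plasma membrane compartment beneath which eisosomes sit is known as a site where ergosterol is enriched. In yeast, Upc2 and Ecm22 bind a short DNA motif, the sterol response element, upstream of sterol genes.

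The core letters of that element, TCGTATA, were searched on both strands in the 500 bases before each start codon. They were present upstream of 10 of the 32 sterol genes (31.25%) and of 415 of 5918 protein-coding genes with a full window (7.01%). The windows below show the motif, in capitals, in 5 genes that fell in the triple mutant and in ERG28, which did not. Each is printed 5′ to 3′ on the strand of its gene, from the RefSeq R64 genome, and TATACGA is the motif read on the other strand.
ERG25, chrVII:610064-610127, + strand: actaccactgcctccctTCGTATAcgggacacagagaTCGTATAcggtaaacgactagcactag
ERG1, chrVII:848779-848825, − strand: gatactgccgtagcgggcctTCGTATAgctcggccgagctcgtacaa
ERG2, chrXIII:667332-667378, + strand: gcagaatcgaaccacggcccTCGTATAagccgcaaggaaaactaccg
ERG3, chrXII:253515-253601, + strand: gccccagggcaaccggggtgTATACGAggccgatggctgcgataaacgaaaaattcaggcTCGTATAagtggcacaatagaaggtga
YEH1, chrXII:125299-125345, + strand: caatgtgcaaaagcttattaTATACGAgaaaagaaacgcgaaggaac
ERG28, chrV:238268-238314, − strand: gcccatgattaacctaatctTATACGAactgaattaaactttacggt

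ERG25, ERG3 and ERG13 held 2 copies each. The ERG25 copies began 483 and 463 bases before the start codon, those of ERG3 326 and 286 bases before it, and those of ERG13 214 and 101 bases before it. The copy of ERG1 began 382 bases before the start codon, that of YEH1 215, that of ERG28 278 and that of ERG2 185, the last inside the annotated non-coding gene RNA170. The 4 sterol genes with a copy that are not printed were ERG13, ERG8, CYB5 and ERG6. Upstream of ERG3, ERG2 and YEH1 the neighbouring gene is transcribed the other way, so the same window also lies upstream of SPT8, RAD14 and PUF3.

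Whole reads recovered from the deposited values came to between 21064051 and 27014469 per library, and between 72 (CYB5) and 18912 (ERG25) on a sterol gene in any library. The deleted genes followed the labels. PIL1 had 93.7 ± 5.42 normalized reads in the triple mutant and 114 ± 2.94 in pil1, against 19215 ± 2936 in wild type (mean ± SD, n = 3 each). SEG1 and NCE102 had 18.3 ± 7.82 and 204 ± 56.4 in the triple mutant, against 6629 ± 526 and 96494 ± 11471 in wild type. No sterol gene lay closer to a deleted gene than ERG25, which is 38105 bases from PIL1. Triple mutant replicate 1 stood apart over all genes, at a chi-square per degree of freedom of 397 (replicate 2) and 312 (replicate 3), while replicates 2 and 3 differed from one another by 52.2. To a smaller extent replicate 2 stood apart in wild type, at 191 and 150, while replicates 1 and 3 differed by 68.1. The same held for replicate 2 in pil1, at 146 and 102 against 36.1. Among the sterol genes triple mutant replicate 1 was the lowest of the 3 triple mutant libraries for 18 and the highest for 9, so where leaving it out changed a call or a count, that value is given too.

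Transcripts of most ergosterol genes were lower in the triple mutant than in wild type, and the largest decreases were those of the steryl ester hydrolase gene YEH1 and of ERG25 on the way from lanosterol to ergosterol. Of the 32 genes, limma called 18 lower (56.2%) and 5 higher (15.6%) at an adjusted p under 0.05, and 9 were not called. Over all 5886 genes tested, 30.9% were called lower and 30.1% higher. The median log2 fold change was -0.31 for the sterol genes and -0.0080 for all genes. Scaling by total reads, in place of the deposited scaling, moved the median of all genes to -0.23 and that of the sterol genes to -0.53. With that scaling 22 sterol genes were called lower and 1 higher, and the split over all genes became 2377 lower and 1029 higher, against 1816 and 1770. Libraries of the triple mutant and wild type did not overlap for 21 sterol genes that were lower and 4 that were higher, while over all genes 32.9% were lower and 32.7% higher without overlap. Without triple mutant replicate 1, 16 sterol genes were called lower and 6 higher, with a median of -0.25. The RNA came from whole cultures, so fewer cells with a transcript and less of it in each cell cannot be told apart.

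**Figure D1:**
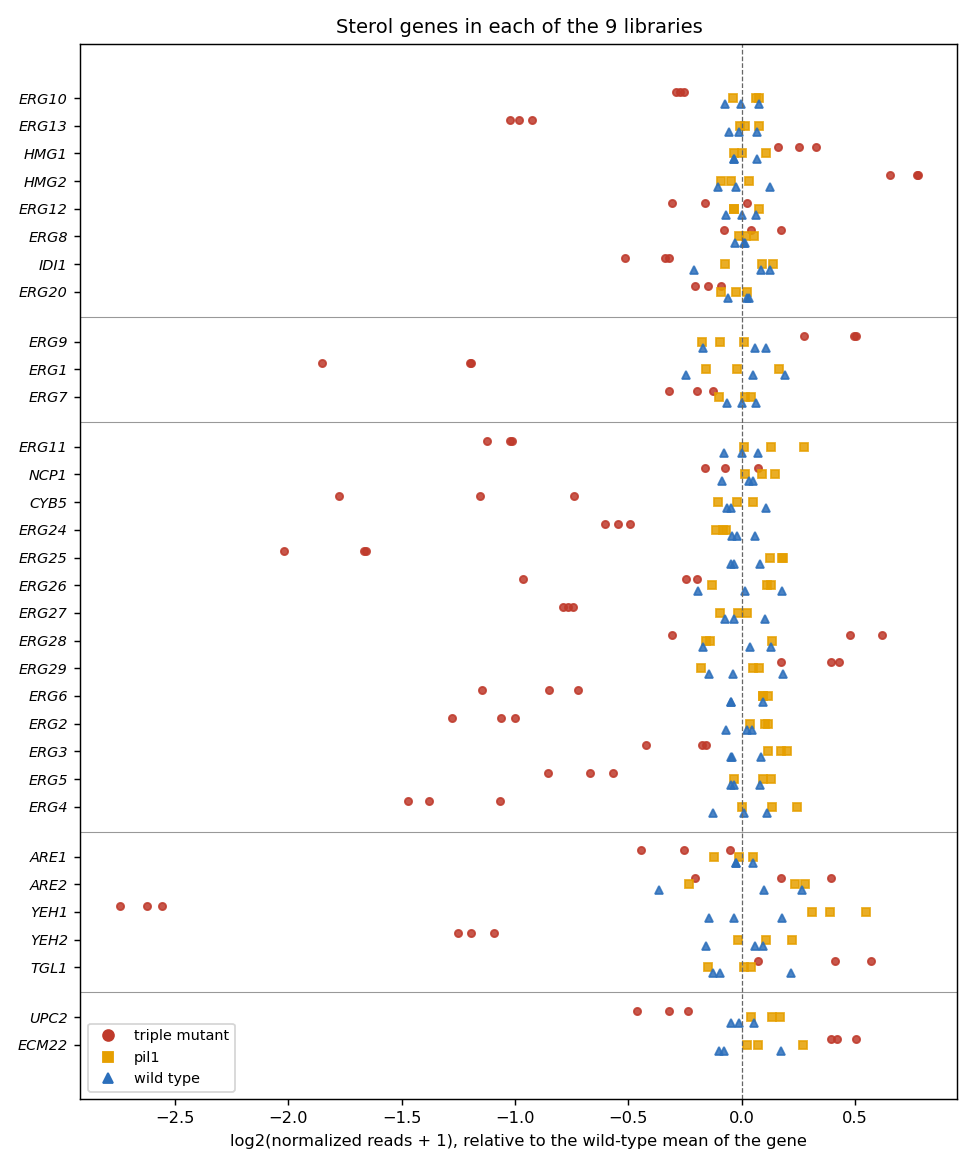
Each row is 1 sterol gene and each point 1 library, on the log2(normalized reads + 1) scale relative to the wild-type mean of the gene. Circles are the triple mutant, squares pil1 and triangles wild type, and lines separate the roles from the mevalonate pathway (top) to the regulators (bottom). The triple mutant circles lie left of the wild type triangles without overlap for 21 genes and right of them for 4.

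The mevalonate pathway, which supplies the isoprenoid units, had genes that rose and genes that fell. Of its 8 genes, 3 fell (37.5%), 2 rose (25.0%) and 3 were not called, shares near those over all genes, with a median log2 fold change of -0.15. The median was -0.094 without triple mutant replicate 1, and with scaling by total reads 4 fell and 1 rose. ERG13, the HMG-CoA synthase gene, had 1496, 1558 and 1453 normalized reads in the triple mutant, 2982, 3117 and 2941 in pil1, and 2840, 3094 and 2933 in wild type. The triple mutant libraries were well below all 6 others, and the decrease was 1.97-fold (log2 fold change -0.98, SE 0.07, limma adjusted p = 8.29e-06). HMG-CoA reductase, the main control point of the pathway, is encoded by HMG1 and HMG2, and both rose. HMG2 had 7908, 7267 and 7882 normalized reads in the triple mutant, 4464, 4726 and 4330 in pil1, and 4540, 5034 and 4300 in wild type. It stood above every other library in all 3 triple mutant libraries and rose 1.66-fold (log2 fold change 0.73, SE 0.09, limma adjusted p = 0.000115). It was the 1 sterol gene called higher in each of the 21 alternative settings. HMG1 had 3192, 2841 and 3031 normalized reads in triple mutant libraries, against 2662, 2478 and 2483 in wild type (a log2 fold change of 0.25, SE 0.08, limma adjusted p = 0.0204). With scaling by total reads its change was 0.023 and not called, and leaving out wild type replicate 2 or 3 or triple mutant replicate 3 also ended the call (adjusted p between 0.0548 and 0.0665).

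The remaining mevalonate genes changed less. ERG10, the acetoacetyl-CoA thiolase gene at the entry of the pathway, averaged 2336 ± 30.3 normalized reads in the triple mutant and 2822 ± 146 in wild type (a log2 fold change of -0.27, SE 0.07, limma adjusted p = 0.00943). IDI1, the isopentenyl diphosphate isomerase gene, had 5704, 4974 and 5635 in the triple mutant, against 7541, 6151 and 7761 in wild type (a log2 fold change of -0.39, SE 0.12, limma adjusted p = 0.0165). Its call ended without wild type replicate 1 or 3 or without triple mutant replicate 2 (adjusted p between 0.0561 and 0.0644). ERG20, the farnesyl diphosphate synthase gene, was not called at 3748 ± 150 against 4154 ± 145, although its libraries did not overlap (log2 fold change -0.15, limma adjusted p = 0.105), and with scaling by total reads it was called lower at -0.37 (adjusted p = 0.0136). The mevalonate kinase gene ERG12 (log2 fold change -0.15) and the phosphomevalonate kinase gene ERG8 (0.046) were not called, and ERG12 was called lower without triple mutant replicate 2 (adjusted p = 0.0471). MVD1, the decarboxylase gene between ERG8 and IDI1 in the pathway, is not among the 32 genes but was in a list beside them, with 701, 626 and 791 normalized reads in triple mutant libraries, against 1253, 1081 and 1421 in wild type (a log2 fold change of -0.82, limma adjusted p = 0.000772).

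Between farnesyl diphosphate and lanosterol, adjacent steps went in opposite directions. ERG9, the squalene synthase gene that commits farnesyl diphosphate to sterols, had 8303, 7081 and 8231 normalized reads in the triple mutant, 5183, 5470 and 5894 in pil1, and 5189, 6097 and 6302 in wild type. It rose 1.34-fold with no overlap between triple mutant and wild type (log2 fold change 0.43, SE 0.11, limma adjusted p = 0.00828). With scaling by total reads it was not called (log2 fold change 0.20, adjusted p = 0.176), nor with replicate 1 of both groups left out (adjusted p = 0.0547). ERG1 (YGR175C, chromosome VII, 846933 to 848423, R64), the squalene epoxidase gene and the target of terbinafine, had 3185, 5019 and 5000 normalized reads in the triple mutant, 12890, 10286 and 11313 in pil1, and 13123, 9689 and 11892 in wild type. Every triple mutant library was far below all 6 others, with replicate 1 the lowest, and ERG1 was 2.66-fold lower (log2 fold change -1.41, SE 0.20, limma adjusted p = 0.000266). ERG7, the lanosterol synthase gene, averaged 3683 ± 252 against 4268 ± 191 (log2 fold change -0.21, SE 0.08, limma adjusted p = 0.0484). That call ended in 8 of the 9 fits that left out 1 library, all but the one without triple mutant replicate 2 (adjusted p between 0.0587 and 0.140).

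Transcripts for the steps after lanosterol mostly fell. Of 14 genes, 10 fell (71.4%), 1 rose (7.1%) and 3 were not called, with a median log2 fold change of -0.73. Over all genes 30.9% were called lower and 30.1% higher. With scaling by total reads 12 of the 14 fell and 0 rose, while over all 5886 genes 2377 were called lower and 1029 higher. With triple mutant replicate 1 left out, 9 fell and 1 rose, with a median of -0.69. Set against the wild-type mean, the median of the 14 was -0.91, -0.69 and -0.65 in triple mutant replicates 1 to 3, so all 3 libraries showed it. ERG25 (YGR060W, chromosome VII, 610564 to 611493, R64), the C-4 methyl sterol oxidase gene, changed most within this group. It had 3914, 3942 and 3062 normalized reads in the triple mutant, 14092, 14072 and 13559 in pil1, and 12134, 13120 and 12021 in wild type. The highest triple mutant value was 3942 and the lowest of all others 12021, a 3.43-fold decrease against wild type (log2 fold change -1.78, SE 0.11, limma adjusted p = 4.64e-06). ERG11 (YHR007C, chromosome VIII, 120091 to 121683, R64), the lanosterol 14-alpha-demethylase gene and the target of azole drugs, had 5659, 6081 and 6104 in the triple mutant, 14917, 12442 and 13500 in pil1, and 12989, 11681 and 12368 in wild type. It was 2.08-fold lower, again with no overlap (log2 fold change -1.05, SE 0.10, limma adjusted p = 3.63e-05). Genes of its electron donors were also measured. The cytochrome P450 reductase gene NCP1 was not called at 4246 ± 351 against 4400 ± 223 normalized reads, but with scaling by total reads it was called lower at -0.28 (adjusted p = 0.0465). The cytochrome b5 gene CYB5 had 81.9, 169 and 126 in the triple mutant, 263, 293 and 279 in pil1, and 305, 270 and 274 in wild type. CYB5 was 2.33-fold lower, with triple mutant replicate 1 the lowest library (log2 fold change -1.22, SE 0.22, limma adjusted p = 0.0013).

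The C-4 demethylation complex did not move as a unit. ERG25 removes the methyl groups together with ERG26, the C-3 sterol dehydrogenase gene, and ERG27, the 3-keto sterol reductase gene, on the scaffold protein Erg28. ERG27 had 943, 929 and 960 normalized reads in triple mutant libraries, against 1572, 1725 and 1530 in wild type (a log2 fold change of -0.77, SE 0.07, limma adjusted p = 3.64e-05). ERG26 had 339, 577 and 559, against 578, 749 and 669 in wild type. Its libraries did not overlap, by a narrow margin between 577 and 578, and it was not called (log2 fold change -0.47, SE 0.20, limma adjusted p = 0.069), but was called lower without triple mutant replicate 2 (adjusted p = 0.0401) and with scaling by total reads (-0.69, adjusted p = 0.0256). ERG28 had 1116, 1922 and 2119 in the triple mutant, 1252, 1237 and 1513 in pil1, and 1226, 1512 and 1416 in wild type. Triple mutant replicate 1 was the lowest of the 9 libraries and replicates 2 and 3 the highest, and ERG28 was not called (log2 fold change 0.26, SE 0.22, limma adjusted p = 0.32). Without triple mutant replicate 1 it was called higher at 0.55 (adjusted p = 0.00612). ERG29, whose product has been linked to the methyl sterol oxidase step, had 1073, 919 and 1099 against 793, 738 and 924 in wild type. It was called higher although triple mutant replicate 2 lay just under wild type replicate 3 (log2 fold change 0.33, SE 0.12, limma adjusted p = 0.0344), and the call ended without wild type replicate 1 or 2, without triple mutant replicate 1 or 3 (adjusted p between 0.0838 and 0.110), and with scaling by total reads.

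The remaining 6 genes of this stretch, which reduce double bonds and build the side chain and ring of ergosterol, all fell. ERG24, the C-14 sterol reductase gene, averaged 2805 ± 110 normalized reads in the triple mutant and 4097 ± 156 in wild type (a log2 fold change of -0.55, SE 0.07, limma adjusted p = 0.000157). ERG6, the C-24 methyltransferase gene that gives ergosterol a side chain absent from cholesterol, had 851, 1142 and 1044 in the triple mutant, against 1823, 2012 and 1821 in wild type (a log2 fold change of -0.91, SE 0.11, limma adjusted p = 0.000111). ERG2, the C-8 sterol isomerase gene, had 862, 1046 and 1001, against 1995, 2160 and 2125 in wild type (a log2 fold change of -1.11, SE 0.09, limma adjusted p = 1.3e-05). For both genes each triple mutant library lay well under every wild type one. ERG5, the C-22 sterol desaturase gene, averaged 3370 ± 333 against 5442 ± 269 (log2 fold change -0.69, SE 0.10, limma adjusted p = 0.000259). ERG4, the C-24(28) reductase gene that completes ergosterol, had 1335, 1426 and 1768 in the triple mutant, 3708, 4384 and 4068 in pil1, and 3398, 4005 and 3734 in wild type, and was 2.47-fold lower (log2 fold change -1.31, SE 0.12, limma adjusted p = 2.81e-05). ERG3, the C-5 sterol desaturase gene, changed least, with 3466, 4161 and 4110 against 4500, 4496 and 4930 in wild type. Its decrease of 1.19-fold (log2 fold change -0.25, SE 0.09, limma adjusted p = 0.04) was no longer called when any wild type library, any pil1 library or triple mutant replicate 1 was left out (adjusted p between 0.0571 and 0.133).

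**Figure D2:**
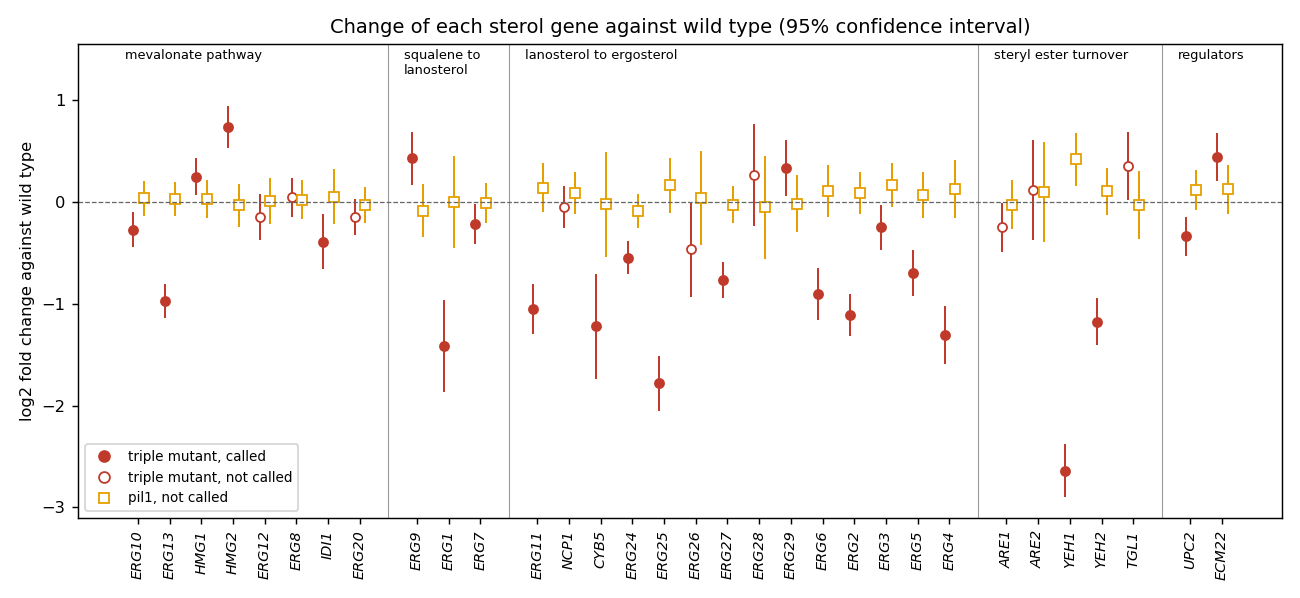
The log2 fold change against wild type of each sterol gene in the triple mutant (circles, filled where limma called the gene) and in pil1 (squares, none called), with 95% confidence intervals and n = 3 libraries per group. Genes run from left to right by role. The largest decrease in the triple mutant is that of YEH1 at -2.64, and all but 1 of the pil1 intervals lie within 1.5-fold of no change.

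Steryl ester hydrolysis held the largest change of any sterol gene. YEH1 (YLL012W, chromosome XII, 125534 to 127255, R64) encodes a lipid droplet steryl ester hydrolase. It had 154, 147 and 135 normalized reads in the triple mutant, 1333, 1193 and 1129 in pil1, and 1030, 889 and 823 in wild type. The triple mutant libraries lay between 135 and 154 and no other library was under 800, which made YEH1 6.24-fold lower than in wild type (a log2 fold change of -2.64, SE 0.11, limma adjusted p = 6.52e-07). Of all 5886 genes it had the 52nd lowest fold change, and 0.87% of genes were lower still. YEH2 (YLR020C, chromosome XII, 181789 to 183405, R64), the paralog whose product is the plasma membrane steryl ester hydrolase, had 892, 833 and 799 in the triple mutant, 2226, 1882 and 2051 in pil1, and 2033, 1710 and 1987 in wild type. It was 2.27-fold lower, with no overlap (log2 fold change -1.18, SE 0.10, limma adjusted p = 1.64e-05). TGL1, the remaining hydrolase gene, had 2218, 3139 and 2812 in the triple mutant, against 1934, 2460 and 1978 in wild type. It was not called (log2 fold change 0.35, SE 0.14, limma adjusted p = 0.0573), but was called higher without triple mutant replicate 1 (log2 fold change 0.49, adjusted p = 0.00938) or without wild type replicate 2 (adjusted p = 0.0206).

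The genes of the sterol acyltransferases, which form steryl esters, were not called. ARE1 averaged 1708 ± 231 normalized reads in the triple mutant and 2019 ± 60.3 in wild type (a log2 fold change of -0.25, limma adjusted p = 0.0614), and was called lower without triple mutant replicate 2 (adjusted p = 0.0122) and with scaling by total reads (-0.48, adjusted p = 0.0164). ARE1 overlaps YCR050C on the opposite strand over 298 bases, and since the sources used here give no strand setting for the counting its level is uncertain to that extent. No other sterol gene overlapped an annotated gene. ARE2 had 5304, 3500 and 4554 in the triple mutant, 4911, 3441 and 4758 in pil1, and 4327, 3136 and 4855 in wild type. Replicate 2 was the lowest library in each of the 3 strains, and the strains overlapped fully (log2 fold change 0.12, SE 0.21, limma adjusted p = 0.649).

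The paralogous activators went in opposite directions. UPC2, the activator best known for the response to sterol depletion, had 1093, 1034 and 937 normalized reads in the triple mutant, 1418, 1451 and 1329 in pil1, and 1249, 1280 and 1342 in wild type. It fell 1.26-fold with no overlap (log2 fold change -0.34, SE 0.08, limma adjusted p = 0.00594). ECM22 had 3146, 3204 and 3395 in the triple mutant, 2517, 2884 and 2430 in pil1, and 2266, 2701 and 2235 in wild type. It rose 1.36-fold with no overlap (log2 fold change 0.44, SE 0.10, limma adjusted p = 0.00445), but with scaling by total reads it was not called, at 0.22 (adjusted p = 0.231).

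**Figure D3:**
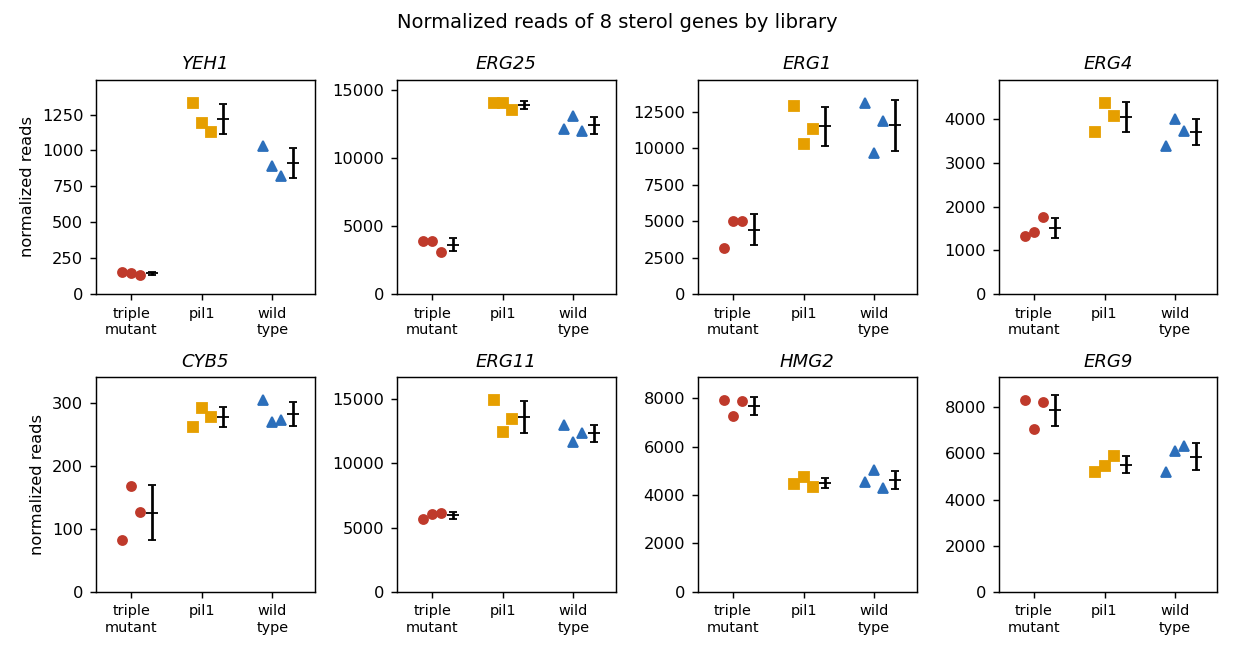
Normalized reads of 8 sterol genes in each library (points, with replicates 1 to 3 from left to right) beside the group mean and SD (bars), for the triple mutant, pil1 and wild type in that order. YEH1, ERG25, ERG1, ERG4, CYB5 and ERG11 are lower in every triple mutant library than in every other library. HMG2 and ERG9 are higher in every triple mutant library, and with scaling by total reads ERG9 was not called.

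Within a library, the ratio of a pair of paralogs does not depend on how libraries are scaled. YEH1 over YEH2 was 0.173, 0.177 and 0.170 in the triple mutant, 0.599, 0.634 and 0.551 in pil1, and 0.507, 0.520 and 0.415 in wild type. HMG1 over HMG2 was 0.404, 0.391 and 0.385 in the triple mutant, 0.614, 0.526 and 0.588 in pil1, and 0.586, 0.492 and 0.578 in wild type. UPC2 over ECM22 was 0.348, 0.323 and 0.276 in the triple mutant, 0.564, 0.503 and 0.547 in pil1, and 0.552, 0.474 and 0.601 in wild type. For these 3 pairs the triple mutant ratios lay below all others, by -1.46, -0.49 and -0.78 on the log2 scale against wild type. Each difference had p = 0.1 by an exact two-sided permutation test, which is the smallest p that 3 against 3 libraries allow, and an adjusted p of 0.171 over the 12 comparisons made. ARE1 over ARE2 was 0.280, 0.556 and 0.372 in the triple mutant and 0.483, 0.633 and 0.409 in wild type, which overlapped (difference -0.37, exact permutation p = 0.4, adjusted p = 0.533). In pil1 against wild type only the ratio of YEH1 to YEH2, of the 4 pairs, did not overlap (difference 0.31, exact permutation p = 0.1). The most similar pair, HMG1 and HMG2, share 81.1% of bases over an aligned stretch of 1201, and the other pairs are less alike.

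**Figure D4:**
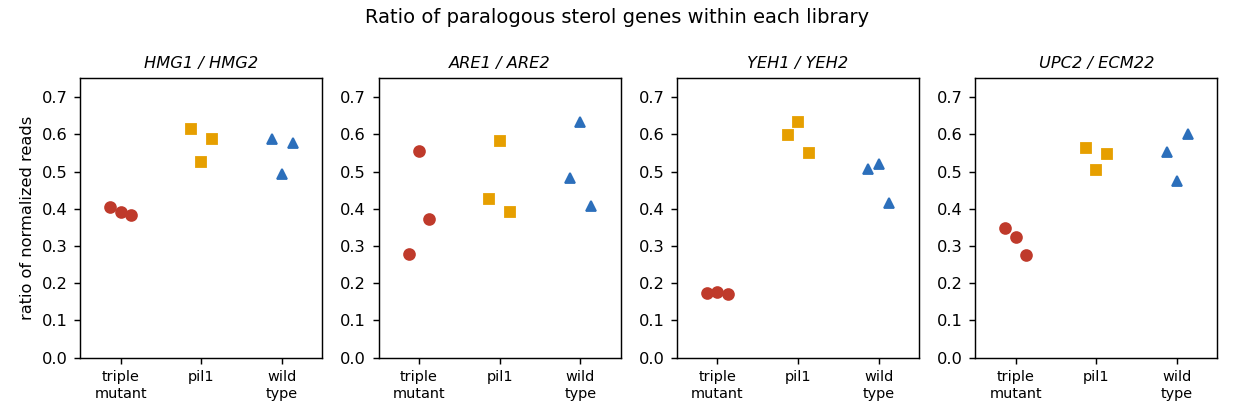
Ratio of normalized reads of 4 pairs of paralogs within each library (points, replicates 1 to 3 from left to right), for the triple mutant, pil1 and wild type. The triple mutant ratios lie below all others for HMG1/HMG2, YEH1/YEH2 and UPC2/ECM22, and overlap with them for ARE1/ARE2.

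Per kilobase of coding sequence, the order of the sterol genes also differed between the strains. ERG25 had rank 3 of 32 in the triple mutant and rank 1 in wild type, at 3913 normalized reads per kilobase in the triple mutant and 13360 in wild type. IDI1 was the highest in the triple mutant, at 6272 against 8248 in wild type, where it had rank 2. ERG9 had rank 2 in the triple mutant and rank 5 in wild type, at 5896 and 4392. UPC2 was the lowest in wild type (373 in the triple mutant, 471 in wild type) and YEH1 was the lowest in the triple mutant (84.3 against 531). These are levels over 3 libraries on the deposited scaling, and small gaps between neighbours in the order were not tested.

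The sterol genes with the sterol response element motif and those without it were counted apart. Of the 10 with the motif, 8 were called lower and 0 higher in the triple mutant, with a median log2 fold change of -1.04. Those called lower were ERG13, ERG1, CYB5, ERG25, ERG6, ERG2, ERG3 and YEH1, and ERG8 and ERG28 were not called. Of the 22 without it, 10 were called lower and 5 higher, with a median of -0.23. These sets also differed in role. CYB5, ERG25, ERG28, ERG6, ERG2 and ERG3 of the motif set belong to the steps after lanosterol, while both regulators lacked the motif. Of the genes after lanosterol without it, ERG11, ERG24, ERG27, ERG5 and ERG4 fell, ERG29 rose, and NCP1 and ERG26 were not called. Motif and role were not told apart. ERG11, ERG4 and YEH2 fell by at least 2-fold without a match in the window. Among the 392 tested genes outside the 32 that held the motif, 27.04% were called lower and 28.32% higher, with a median of 0.0064, and among the 5377 without it 31.08% and 30.59%. The neighbours PUF3 and RAD14, which lie across the same intergenic stretches as YEH1 and ERG2, were called higher, and SPT8, the neighbour of ERG3, was not called at a log2 fold change of 0.27. A second motif, ATTGTTC, the core letters bound by the hypoxic repressor Rox1, was found on either strand upstream of 9 of the 32 genes (28.12%) and of 701 of 5918 (11.85%). ERG1 held 3 copies of it, all within 86 bases of the start codon, and the other genes were HMG2, ERG20, NCP1, CYB5, ERG26, ERG5, ARE1 and ECM22. These 9 included genes that rose, fell and were not called. Matches of these letters are descriptions of the sequence, and no binding was measured.

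Deletion of PIL1 alone left no sterol gene called. Of all 5886 genes, 1 was called in either direction (0.0170%), PIL1 itself. Of the 32 sterol genes limma, edgeR and DESeq2 called 0 each, and 1, YEH1, had an unadjusted limma p under 0.05. The median log2 fold change was 0.031, and the 95% confidence interval lay within 1.5-fold of no change for 31 of the 32 genes. YEH1 had 1333, 1193 and 1129 normalized reads in pil1, against 1030, 889 and 823 in wild type, so its libraries did not overlap, and its log2 fold change was 0.42 (SE 0.11, 95% confidence interval 0.17 to 0.67, limma adjusted p = 1). Libraries of ERG25, ERG6 and ERG3 also lay wholly above wild type, which made 4 of 32 genes beside 3.47% of all genes. ERG24 lay wholly below, 1 of 32 beside 2.75% of all genes. Within same-numbered pairs of libraries, 15 of the 32 genes, among them ERG11, ERG4, ERG2 and YEH2, were higher in pil1 in all 3 pairs and 2, ERG9 and ERG24, were lower in all 3. Over all genes tested, 20.5% were higher and 17.6% lower in all 3 pairs, and with the pairs as a block 0 sterol genes were called. The interval and p-values given above do not use the pairs. For YEH1 the limma adjusted p was 0.762 with the block over all libraries. With the block and only pil1 and wild type libraries, a fit chosen after seeing the data, it was 0.0593. ERG25 averaged 13908 ± 302 in pil1 and 12425 ± 604 in wild type (a log2 fold change of 0.16), ERG3 5197 ± 149 and 4642 ± 249 (0.16), and ERG24 3854 ± 58.1 and 4097 ± 156 (-0.088), none of which was called.

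Set against pil1, which shares the pil1 deletion but carries SEG1 and NCE102, the triple mutant differed in much the same number of sterol genes. Limma called 17 lower (53.1%) and 6 higher (18.8%), with a median log2 fold change of -0.43, beside 32.1% lower, 30.8% higher and a median of -0.0095 over all genes. This comparison uses the same triple mutant libraries as the one with wild type, so it is no second measurement of them. YEH1 was 8.33-fold lower than in pil1 (log2 fold change -3.06, limma adjusted p = 3.27e-07) and ERG25 3.85-fold lower (log2 fold change -1.94, limma adjusted p = 2.53e-06). HMG2 was higher by 0.77 (adjusted p = 8.13e-05) and ERG9 by 0.51 (adjusted p = 0.00302). ERG7 was not called here (log2 fold change -0.20, adjusted p = 0.0585), and TGL1 was called higher (log2 fold change 0.38, adjusted p = 0.041). With scaling by total reads 23 sterol genes were called lower and 1, HMG2, higher, and the change of HMG1, 0.22 with the deposited scaling, was -0.037 (not called, adjusted p = 0.754). With that scaling the median over all genes was -0.27, the call of ERG9 ended (adjusted p = 0.0913) and ERG12, ERG20, ERG7, NCP1, ERG26 and ARE1 were called lower (adjusted p between 0.00869 and 0.0329). The calls of HMG1, ERG29, TGL1 and ECM22 each also ended when single libraries were left out. For HMG1 these were pil1 replicate 2 or 3 and triple mutant replicate 1 or 3 (adjusted p between 0.0718 and 0.107), and for ERG29 pil1 replicate 2 and triple mutant replicate 1 or 3 (adjusted p between 0.0685 and 0.0957). For TGL1 they were wild type replicate 3, any pil1 replicate and triple mutant replicate 2 or 3 (adjusted p between 0.0531 and 0.137), and for ECM22 pil1 replicate 1 or 3 and triple mutant replicate 3 (adjusted p between 0.0677 and 0.0775). Other calls were gained in this way. Without triple mutant replicate 1, ERG28 was called higher at 0.60 (adjusted p = 0.00367). Without triple mutant replicate 2, ERG12 (adjusted p = 0.0424), ERG7 (adjusted p = 0.0401), ARE1 (adjusted p = 0.0165) and ERG26 (adjusted p = 0.0311) were called lower, and ERG26 also without triple mutant replicate 3 (adjusted p = 0.0439) or wild type replicate 2 (adjusted p = 0.0491).

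Neighbouring lipid pathways were read beside the sterol genes, triple mutant against wild type. With the deposited scaling and all libraries, each count is to be read against the 30.9% of all genes called lower and the 30.1% called higher. Counts with scaling by total reads are to be read against 2377 lower and 1029 higher of all 5886 genes. Those without triple mutant replicate 1 are to be read against 1755 lower and 1736 higher. Fatty acid synthesis, which supplies the acyl chains of steryl esters, had the highest share of genes called lower among the lists, with 9 of 11 genes lower and 0 higher and a median log2 fold change of -1.21. FAS2 and FAS1, the fatty acid synthase subunit genes, averaged 5517 ± 861 and 7461 ± 1103 normalized reads in triple mutant libraries, against 29726 ± 3718 and 24306 ± 1841 in wild type (log2 fold changes -2.43 and -1.71, limma adjusted p = 3.61e-06 and 1.49e-05). ELO2, a fatty acid elongase gene, averaged 82.4 ± 13.4 against 362 ± 43.5 (log2 fold change -2.13, limma adjusted p = 7.56e-06). Without triple mutant replicate 1, 8 of the 11 were lower.

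The turnover of sterol enzymes had more genes called higher than lower. Of 12 genes for the degradation of HMG-CoA reductase, squalene epoxidase and related proteins or its control, 5 were higher (41.7%) and 1 lower (8.3%), with a median of 0.23, while with scaling by total reads 3 were higher and 1 lower and the median was 0.0027. HRD1 and HRD3, which encode the ubiquitin ligase that degrades Hmg2 in yeast and its partner, averaged 2974 ± 484 and 4278 ± 342 normalized reads in triple mutant libraries, against 1700 ± 284 and 2369 ± 51.4 in wild type (log2 fold changes 0.81 and 0.85, limma adjusted p = 0.00172 and 2.53e-05). NSG1, whose product protects Hmg2 from that degradation, was the member that fell, at 487 ± 40.9 against 1098 ± 73 (log2 fold change -1.17, limma adjusted p = 1.23e-05). Protein levels were not measured.

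Of 22 sterol transport genes 6 were higher and 6 lower (27.3% each), near the shares over all genes, with a median of -0.11. With scaling by total reads 4 were higher and 9 lower, and without triple mutant replicate 1, 6 and 8. YSP2 and SIP3, genes of sterol transfer proteins at membrane contact sites, averaged 1593 ± 94.7 and 1669 ± 143 in the triple mutant, against 3235 ± 165 and 3926 ± 465 in wild type (log2 fold changes -1.02 and -1.23, limma adjusted p = 2.08e-05 and 1.73e-05). LAM5, of the same protein family, averaged 8111 ± 454 against 4482 ± 264 (log2 fold change 0.86, limma adjusted p = 3.46e-05). In the isoprenoid branches that draw on the mevalonate pathway, 3 of 14 genes were higher (21.4%) and 5 lower (35.7%), with a median of 0.0007, and 3 and 4 without triple mutant replicate 1. NUS1, a subunit gene of the dolichol-forming prenyltransferase, averaged 2442 ± 57.1 against 1059 ± 193 (log2 fold change 1.22, limma adjusted p = 8.96e-05). BET2, a subunit gene of the prenyltransferase that modifies Rab proteins, was higher (log2 fold change 0.70, limma adjusted p = 0.000165), and BTS1, the geranylgeranyl diphosphate synthase gene, was lower (log2 fold change -0.49, limma adjusted p = 0.000384).

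Triacylglycerol and lipid droplet genes had 6 of 15 higher and 3 lower, with a median of 0.15 that was 0.25 without triple mutant replicate 1 and turned to -0.074 with scaling by total reads. FAA4, an acyl-CoA synthetase gene, was the most reduced among them, at 1323 ± 61.5 against 7609 ± 2532 (log2 fold change -2.47, limma adjusted p = 2.23e-05). SEI1, the seipin gene of droplet formation, was lower as well (log2 fold change -1.23, limma adjusted p = 0.000232), while HFD1, a fatty aldehyde dehydrogenase gene, was higher (log2 fold change 0.98, limma adjusted p = 0.000362). Heme, the cofactor of Erg11 and Erg5, is made by 8 enzymes in the list, of whose genes 3 were higher (37.5%) and 2 lower (25.0%) with a median of 0.21, which turned to -0.013 with scaling by total reads. Leaving out triple mutant replicate 1 gave 3 higher and 1 lower. HEM2 averaged 5576 ± 917 against 1971 ± 83.4 (log2 fold change 1.49, limma adjusted p = 1.07e-05). HEM1 was higher (log2 fold change 1.52, limma adjusted p = 0.00293) and HEM4 lower (log2 fold change -0.53, limma adjusted p = 0.000843). Of 10 oxygen, heme and lipid regulators 3 were higher and 3 lower (30.0% each), with a median of -0.017, and 1 and 3 without triple mutant replicate 1. SPT23, the gene of an activator of fatty acid desaturation, was higher (log2 fold change 0.86, limma adjusted p = 0.000199), and MOT3, a repressor gene of hypoxic and ergosterol genes, was lower (log2 fold change -0.65, limma adjusted p = 0.0012). DAP1, whose product binds heme and supports Erg11 in yeast, averaged 1330 ± 242 against 2152 ± 32.1 (log2 fold change -0.71, limma adjusted p = 0.00139). In pil1 against wild type 0 genes of any of these lists were called.

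**Figure D5:**
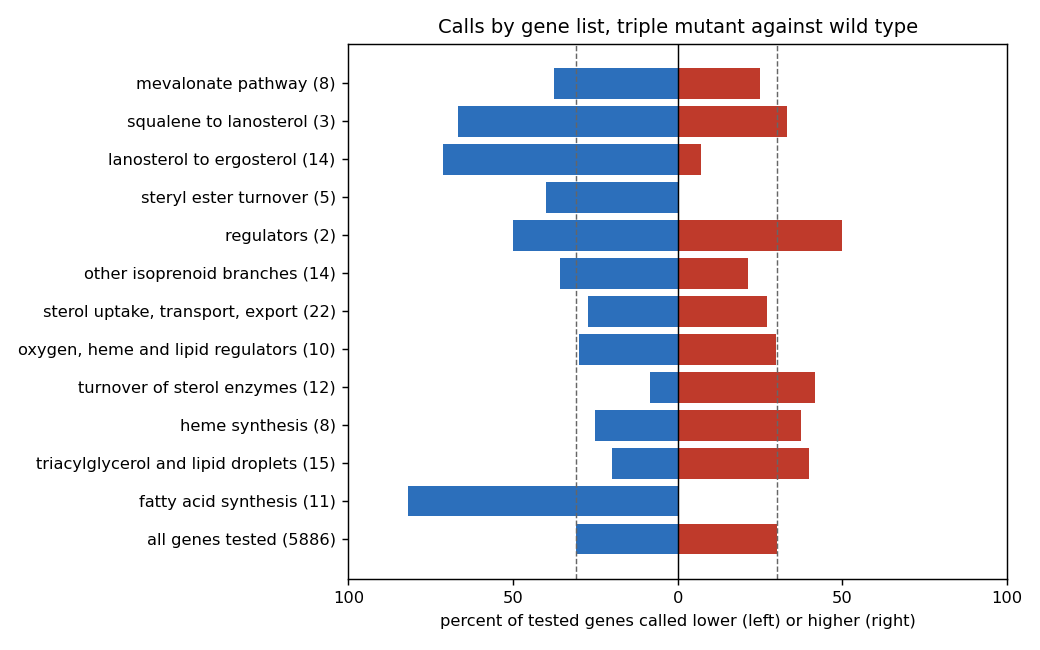
Percent of tested genes called lower (bars to the left) and higher (bars to the right) in the triple mutant against wild type, by gene list with the number of genes in parentheses, and for all genes tested. Dashed lines mark the shares over all genes, 30.9% lower and 30.1% higher. The lists of lanosterol to ergosterol (71.4%) and fatty acid synthesis (81.8%) have the highest shares called lower. With scaling by total reads the share called higher was smaller over all genes and the share called lower was larger. The counts were then 1029 higher and 2377 lower of 5886 genes, against 1770 and 1816 with the deposited scaling.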

How the data were processed

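The deposited table holds a signal for 6215 genes in 9 libraries, normalized by the authors. It is the read count over a size factor of the library, since 100% of values were whole multiples of the value of 1 read at a tolerance of 1e-06, with size factors between 0.791 and 1.34. A second deposited table of log2 values, of a transformation that the sources used here do not name, was an alternative. The submitters' processing notes name GSNAP, DESeq2, DESeq and R64, with no version or role. For the counting tool, annotation and strand setting, the sources used here give nothing. Per the labels' protocols, cells were washed in 10 mM fluoride and azide, lysed with glass beads, and poly(A) RNA was selected.

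The test was limma 3.58.1 in R 4.3.3 (lmFit, then a trended, robust eBayes) on log2(value + 1) over all 9 libraries with group means. Genes averaging 10 or more normalized reads were tested (5886), which left 329 out. Two-sided p-values were adjusted over all tested genes by Benjamini-Hochberg, with calls under 0.05, and fold changes understate the change of low genes. A list is described by its counts and median, without a test. The design had foreseen raw counts or normalized values, and the second applied. The whole reads went into edgeR 4.0.16 and DESeq2 1.42.0 as alternatives. The fit was tested on simulated data with known changes.

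The 32 genes, the other lists and the motifs were chosen with earlier results of these data known. All 32 genes are accounted for, and of each other list the text names up to 3 genes with the smallest p in the triple mutant against wild type, and MVD1. SPT8, RAD14 and PUF3 were named for their position. Of 6215 identifiers, 6212 were found in the RefSeq R64 annotation and 3 were not, and 5 list symbols were matched by an older name. No library was taken for a repeat deposit, as replicates of a group gave a chi-square of 36.1 to 397 per degree of freedom. Deviations of same-numbered pil1 and wild type libraries from their group means correlated at 0.639, 0.833 and 0.579, so these were taken as paired, on the strength of this check alone, since the labels state no shared batch. The main fit has no block, so its intervals and p-values do not use this pairing, and fits with a replicate block are given as alternatives. Same-numbered triple mutant and wild type libraries gave 0.0499, 0.191 and 0.362, and triple mutant and pil1 libraries 0.0694, 0.237 and 0.439. In both, replicate 1 did not meet the limit of 0.1 asked of every number. Libraries of unlike number gave at most 0.0251 and 0.0209, below each same-numbered value, so a weaker shared structure by number is present there too.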

Additional observations from a re-analysis of the deposited data

How the results depend on the processing

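In the comparison of triple mutant and wild type, 16 of the 23 called sterol genes kept their call and direction in all 21 alternatives, 15 of them lower and 1 higher. Against pil1, 18 of 23 did, 17 lower and 1 higher. Scaling by total reads moved the sterol medians to -0.53 (triple mutant against wild type), -0.69 (triple mutant against pil1) and 0.0641 (pil1 against wild type), left 1 sterol gene higher in each of the triple mutant comparisons, and turned HMG1 against pil1 to -0.0366. The all-gene median moved to -0.23 and -0.27 at the same time, and the split over all genes against pil1 to 1023 higher and 2570 lower. With 1 library left out, sterol genes called higher numbered 3 to 6 against wild type and 2 to 6 against pil1, the median against pil1 was -0.43 to -0.32, and the median of pil1 against wild type was 0.0245 to 0.0485. With replicate 1 of both triple mutant and wild type left out, these medians were -0.32 and 0.0383. With edgeR the median of pil1 against wild type was 0.0257. DESeq2 called 2 genes in pil1 against wild type. The causes were not tested.

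With a replicate block, limma called 4024 genes in the triple mutant against wild type (6 sterol genes higher, 19 lower), 4162 against pil1 (6 and 19), and 1 in pil1 against wild type with 0 sterol genes. With the block and only the compared groups, an alternative chosen after seeing the data, it called 3330 (5 and 17), 3732 (6 and 18) and 1 (0 and 0). With only the compared groups and no block, it called 3306 (4 and 16), 3615 (5 and 17) and 1 (0 and 0). The block over all libraries added calls of ERG26 (adjusted p = 0.012) and TGL1 (adjusted p = 0.00864) against wild type. Against pil1 it added those of ERG26 (adjusted p = 0.00831) and ERG7 (adjusted p = 0.0417). Triple mutant libraries were not taken as paired with either group, since replicate 1 did not meet the limit, but a weaker shared structure by number was present. The block over all libraries changed no call in pil1 against wild type. There the adjusted p of YEH1 was 0.762 with the block and 0.0593 with the block and only the compared groups.

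All 32 genes had enough reads to be tested, and 3 libraries per group limit the precision. P-values cover the spread between these libraries, which the labels call biological replicates. Counting error weighs most on CYB5, which had the fewest reads.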
